A study of Mus musculus with 11 samples.

Results

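The interleukin and interleukin receptor genes were read in skin RNA from 11 mice after bone marrow transplant. They were chosen by name as the genes of the NanoString Myeloid Innate Immunity panel whose symbol begins with Il and a digit, leaving out Il33, Il1rl1 and Il4, which gave 32 of the 754 genes on the panel. By role these were 17 ligand genes, 13 receptor genes, 1 receptor antagonist (Il1rn) and 1 enzyme (Il4i1, an L-amino acid oxidase named for its induction by IL-4, which is neither an interleukin nor a receptor). All recipients were female and 8 to 10 weeks old at transplant, were irradiated with 850 cGy and received 5000000 bone marrow cells and 2000000 splenocytes, and the nape skin was taken after 7 weeks. The syngeneic group was 3 C57BL/6J recipients, the allo-WT group was 3 C57BL/6J recipients of LP/J cells, and the allo-MCd group was 5 recipients of LP/J cells with the strain B6.Cg-KitW-sh/HNihrJaeBsmGlliJ, whose W-sh allele of Kit leaves the animals without mast cells. The mutation is carried by every cell of the host and not by mast cells alone. The treatment label gives LP/J donor cells for every mouse, whereas the methods give C57BL/6J donors for the syngeneic group. No syngeneic group on the Kit mutant strain was analysed here, so host strain and graft-vs.-host disease cannot be told apart in allo-MCd against syngeneic. The comparison of allo-MCd with allo-WT gives what differs in the skin between mutant and C57BL/6J hosts of LP/J cells. In it the lack of mast cells cannot be told apart from other effects of the mutation or the strain.

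Interleukins are secreted signals that cells of the immune system and the epidermis use to act on each other, and each acts through its receptor chains. In the IL-1 family, IL-1α and IL-1β bind IL1R1 with the accessory chain IL1RAP, IL1RN occupies the same receptor without signalling, and IL1R2 is a decoy that binds the ligand and does not signal. The type 1 cytokine receptors (those for IL-4, IL-6, IL-15, IL-21 and others) signal through JAK kinases and STAT proteins. In graft-vs.-host disease of skin these signals come from donor T cells, macrophages, neutrophils and keratinocytes, and are received by the same cells and by fibroblasts.

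Values below are normalised counts of each mouse, in the order of the mouse numbers. The background of a mouse was the mean of its 8 negative control probes plus 2 SD, brought to the scale of the gene values, and lay between 14.3 and 37.5. Of the 32 members, 15 were above background in all 11 mice, 15 in some mice, and 2 (Il22 and Il27) in none. Over all 754 panel genes 607 were above background in all 11 mice and 9 in none. Receptor genes were mostly measurable: 10 of 13 were above background in every mouse, against 4 of 17 ligand genes (Il1a, Il1b, Il15 and Il18). The number of members above background ran from 18 to 26 in syngeneic, from 23 to 27 in allo-WT and from 17 to 20 in allo-MCd mice. In allo-MCd skin 8 members were above background in no mouse, and these were Il3, Il5, Il9, Il10, Il22, Il23a, Il25 and Il27. A value there is only an upper bound on the RNA.

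**Figure D1:**
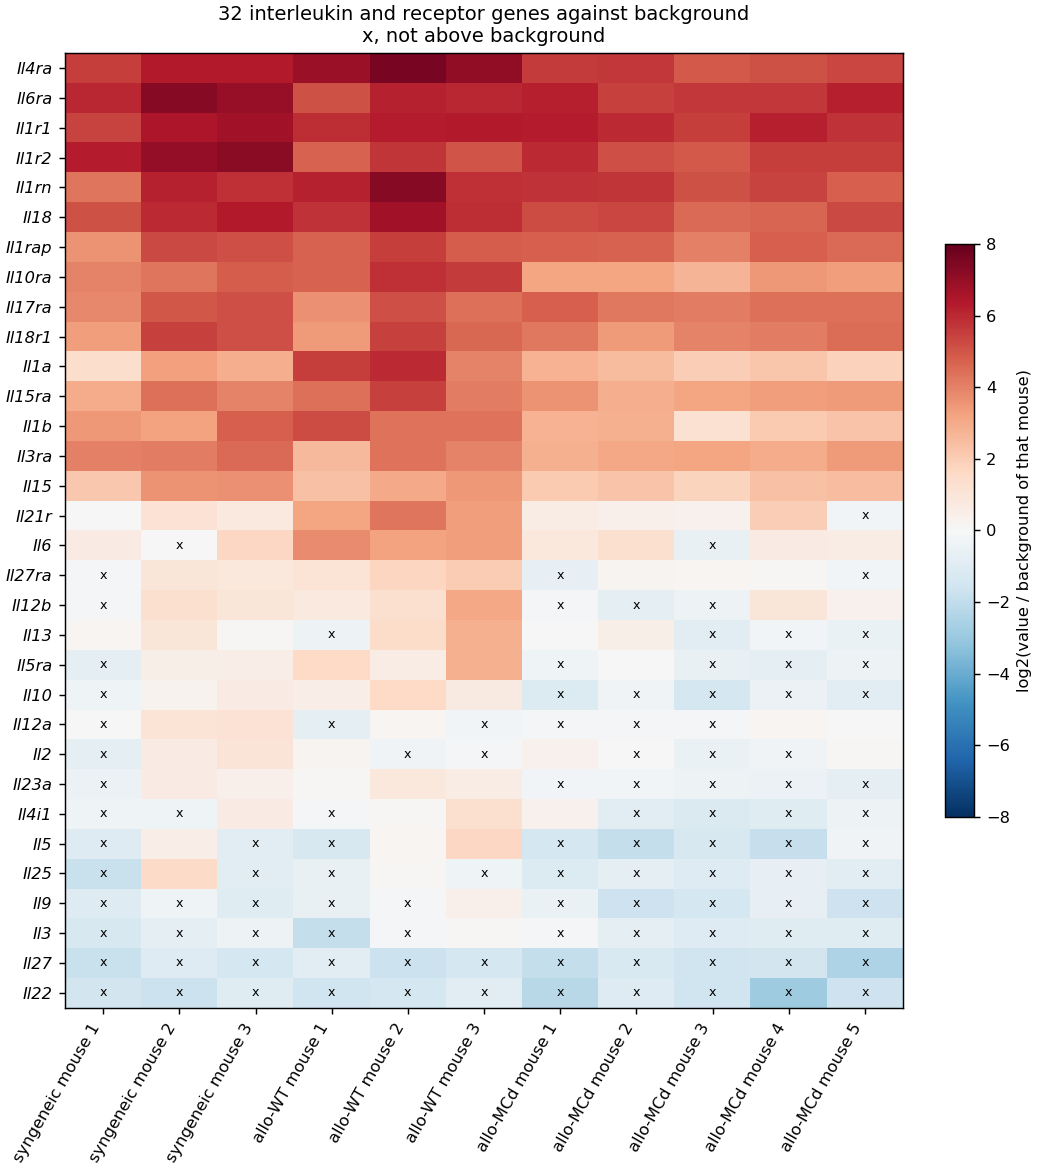
Colour gives log2 of the normalised count over the background of the same mouse for the 32 genes (rows) in the 11 mice (columns), and a cross marks a value that was not above background. The upper 15 rows have no cross in any mouse, and Il22 and Il27 at the bottom have one in every mouse.

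Differences were taken with limma on log2(value + 1) over the 3 groups in 1 fit, on the 696 panel genes that reached 20 in 3 or more mice, with the Benjamini-Hochberg adjustment over all of them and a call at an adjusted p of at most 0.05. Of the members 27 passed this filter and 5 (Il3, Il9, Il22, Il25 and Il27) did not. Just inside it stood Il5, with 3 mice at 20 or over, and just outside it Il9 and Il25, with 2 each. The mouse is the replicate, and an exact two-sided permutation test of 1 gene cannot go below 0.1 with 3 mice against 3, or below 0.0357 with 3 against 5.

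Between allo-WT and syngeneic skin members were called in both directions, at shares near those of all genes. In allo-WT against syngeneic skin 9 of the 27 tested members were called higher (33.3%, where 28.3% of all genes tested were) and 3 lower (11.1%, where 14.9% of all genes were). The 9 were the ligands Il1a and Il6, the antagonist Il1rn, and 6 receptor genes, Il21r, Il5ra, Il4ra, Il27ra, Il10ra and Il15ra. The 3 lower genes were Il1r2, Il6ra and Il12a. In allo-MCd against allo-WT skin 19 members (70.4%) were called lower, where 50% of all genes were, and no member higher, where 10.9% of all genes were.

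Against syngeneic skin, allo-MCd skin had 11 members called lower (40.7%, where 36.9% of all genes were) and none higher (4.6% of all genes). No member passed an unadjusted p under 0.05 as higher in either allo-MCd comparison. The median log2 difference of the tested members was 0.61 for allo-WT minus syngeneic, -1.38 for allo-MCd minus allo-WT and -0.82 for allo-MCd minus syngeneic, beside 0.21, -0.72 and -0.59 over all genes tested. These comparisons share mice, so their values are not independent of each other.

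**Figure D2:**
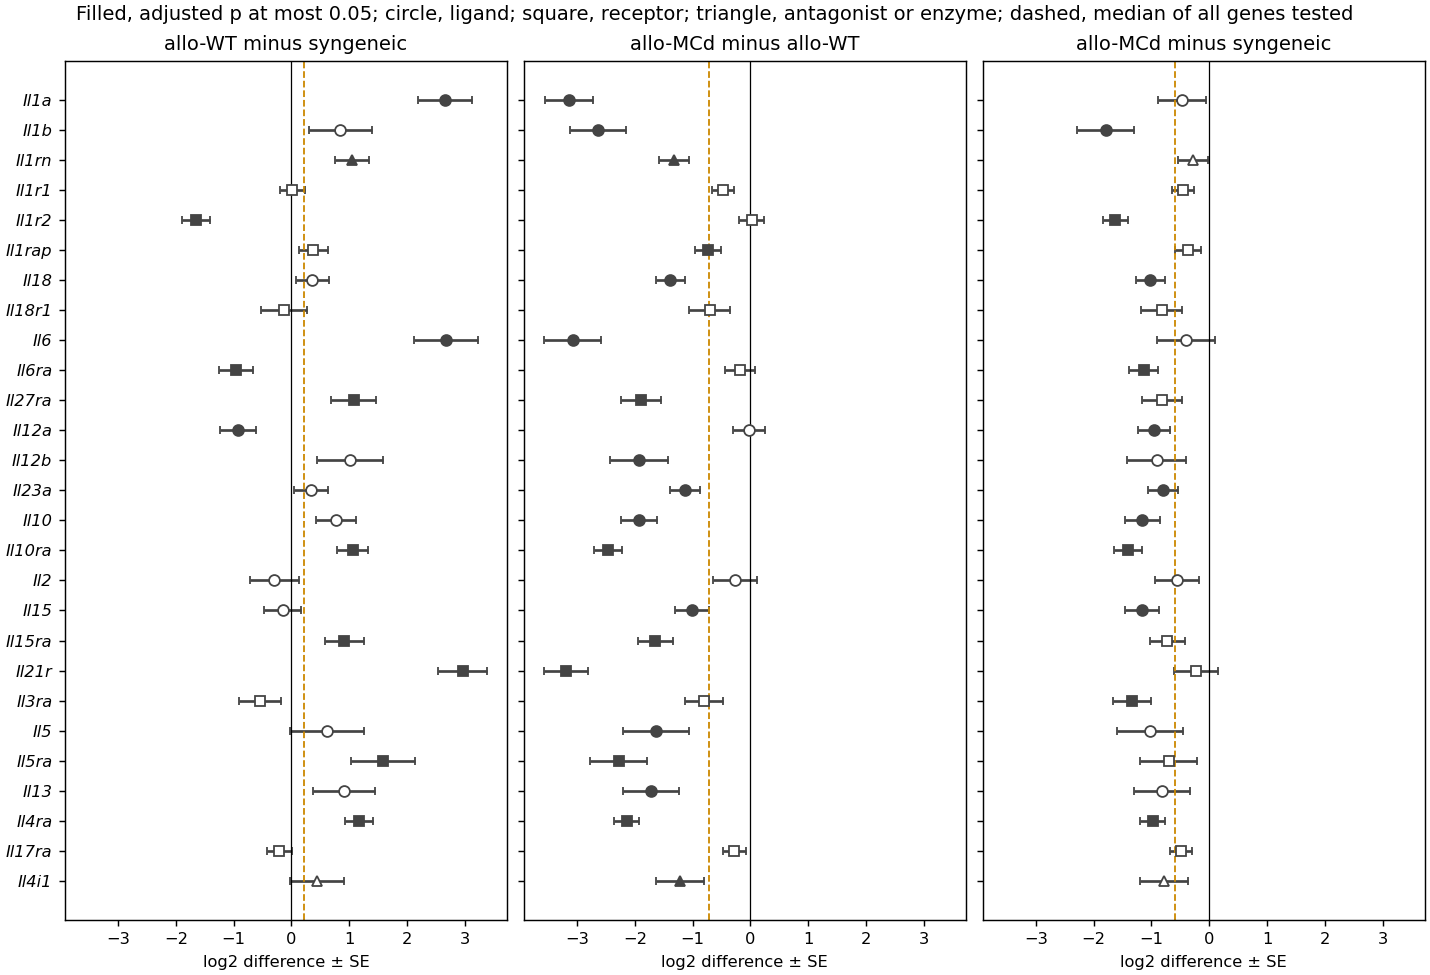
Log2 difference with its SE for the 27 tested members (rows, by family) in the 3 comparisons, where a filled symbol is a call, circles are ligands, squares are receptors and the dashed line is the median of all genes tested. In the middle panel 26 of 27 members lie below 0, and Il21r, Il1a and Il6 lie farthest out at -3.19, -3.14 and -3.08.

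The direction of the smaller differences depends on the scale. Rescaling each mouse to 20 housekeeping genes of the panel left the deposited scale nearly as it was, with member medians of 0.61, -1.38 and -0.81. The deposited values were thus already nearly level on these genes. This setting is no separate check of the scale, although it counts among the alternatives run. The typical gene of the panel had a lower value in allo-MCd mice (medians of 241 to 356 by mouse) than in allo-WT mice (465 to 555). When each mouse was instead scaled to its own median gene, the median difference of all genes between allo-MCd and allo-WT moved from -0.72 to 0.17, that of the members from -1.38 to -0.49, and the split of member calls from 19 lower and 0 higher to 10 lower and 5 higher. On that scale 29.5% of all genes were called lower and 37.2% higher. The 10 members called lower on both scales were Il21r, Il1a, Il6, Il1b, Il10ra, Il5ra, Il4ra, Il10, Il27ra and Il15ra. The 5 called higher on the median scale only were Il1r2, Il12a, Il6ra, Il17ra and Il1r1, of which 4 are receptor genes. Which of the scales is nearer to the RNA per cell was not tested.

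**Figure D3:**
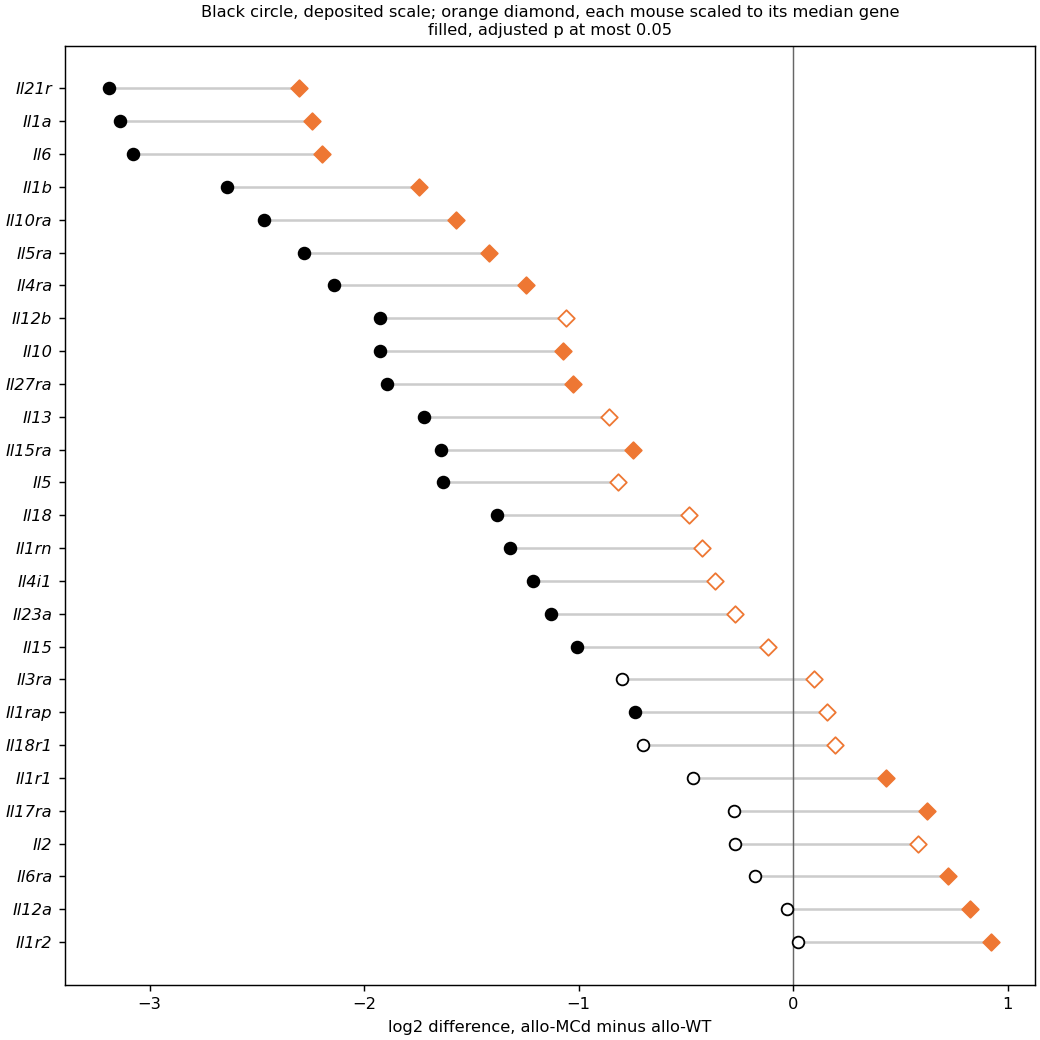
Log2 difference between allo-MCd and allo-WT for the 27 tested members (rows) on the deposited scale (black circles) and with each mouse scaled to its median gene (orange diamonds), filled where called. The lower side keeps 10 filled diamonds, and at the other end Il1r2 moves from 0.02 to 0.92.

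For allo-WT against syngeneic the median scale kept 6 of the 9 members called higher (Il1a, Il6, Il21r, Il4ra, Il5ra and Il10ra; 24% of all genes) and the 3 called lower, and added Il3ra to the lower side (26.9% of all genes). For allo-MCd against syngeneic it kept 2 of 11 as lower, Il10ra and Il1r2 (11.5% of all genes), with none higher (16.8% of all genes). One library also stands apart. The strongest positive control probe of allo-WT mouse 1 counted 3975, against 17615 to 33547 in the other 10 mice, and its values carry the largest factor (2.54, against 0.759 to 1.496). Without this mouse 5 members were called higher in allo-WT than in syngeneic skin (Il1a, Il6, Il21r, Il4ra and Il10ra, where 23.9% of all genes were), 3 lower (10.6% of all genes), and 18 lower in allo-MCd against allo-WT (43.5% of all genes).

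The sequence before the start of 6 members is shown, for the genes with the clearest opposite movements: the ligands Il1a and Il6, the receptor genes Il4ra and Il21r, which are next to each other on chromosome 7 and were both called higher in allo-WT, and Il1r2 and Il6ra, which were called lower there. Each line is the 250 bases before the start in RefSeq (GRCm38.p6), 5′ to 3′ on the strand of the gene, with matches to 4 motifs in capitals.
Il1a (chr2:129309973-129310222, minus strand): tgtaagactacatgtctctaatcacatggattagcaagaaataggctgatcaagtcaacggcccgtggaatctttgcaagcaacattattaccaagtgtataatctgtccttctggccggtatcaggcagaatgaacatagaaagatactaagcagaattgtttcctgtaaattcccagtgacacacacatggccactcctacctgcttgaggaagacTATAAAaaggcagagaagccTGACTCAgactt
Il6 (chr5:30012864-30013113, plus strand): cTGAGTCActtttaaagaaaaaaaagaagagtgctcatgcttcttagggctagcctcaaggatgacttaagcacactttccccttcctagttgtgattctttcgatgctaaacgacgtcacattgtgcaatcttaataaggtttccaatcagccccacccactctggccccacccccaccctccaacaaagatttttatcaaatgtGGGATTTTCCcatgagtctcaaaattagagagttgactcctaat
Il4ra (chr7:125552021-125552270, plus strand): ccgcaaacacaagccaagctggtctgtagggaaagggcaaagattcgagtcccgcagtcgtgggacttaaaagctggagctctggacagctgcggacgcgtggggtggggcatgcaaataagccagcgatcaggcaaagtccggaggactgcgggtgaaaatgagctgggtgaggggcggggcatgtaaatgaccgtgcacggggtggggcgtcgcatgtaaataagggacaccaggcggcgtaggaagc
Il21r (chr7:125603179-125603428, plus strand): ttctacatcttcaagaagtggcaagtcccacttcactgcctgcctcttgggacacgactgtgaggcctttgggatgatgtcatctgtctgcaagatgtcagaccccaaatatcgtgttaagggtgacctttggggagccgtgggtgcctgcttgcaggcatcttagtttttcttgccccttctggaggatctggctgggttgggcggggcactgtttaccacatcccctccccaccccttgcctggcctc
Il1r2 (chr1:40085843-40086092, plus strand): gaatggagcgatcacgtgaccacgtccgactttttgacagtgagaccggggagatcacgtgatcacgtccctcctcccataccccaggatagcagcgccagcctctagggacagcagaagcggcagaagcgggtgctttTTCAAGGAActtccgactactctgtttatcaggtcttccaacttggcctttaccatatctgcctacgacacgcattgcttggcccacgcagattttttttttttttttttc
Il6ra (chr3:89913197-89913446, minus strand): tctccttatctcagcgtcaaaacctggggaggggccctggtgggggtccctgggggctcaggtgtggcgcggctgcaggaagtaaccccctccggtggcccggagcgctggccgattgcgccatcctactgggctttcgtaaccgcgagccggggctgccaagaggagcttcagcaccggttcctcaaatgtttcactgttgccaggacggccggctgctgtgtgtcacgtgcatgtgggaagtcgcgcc

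The motifs searched on both strands were AP-1 (TGANTCA), STAT (TTCNNNGAA), the TATA box (TATAAA) and NF-kB by its 10-base consensus, and no matches in these 6 windows overlapped. Il1a held a TATA box from 32 to 27 bases and an AP-1 match from 12 to 6 bases before its start. Il6 held an AP-1 match from 249 to 243 bases and an NF-kB match from 44 to 35 bases before its start. Il1r2 held a STAT match from 111 to 103 bases before its start, and Il4ra, Il21r and Il6ra held none of the 4 motifs in this window. Over the 32851 windows of all genes 6.75% held AP-1, 7.02% STAT, 12.4% the TATA box and 7.25% NF-kB. RefSeq windows were given for 24 of the 32 members, 31 windows in all, of which 6 held AP-1, 2 STAT, 6 the TATA box and 2 NF-kB. A match is a description of the letters only.

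In the IL-1 family the ligands Il1a, Il1b and Il18 and the antagonist Il1rn were each called lower in allo-MCd against allo-WT skin, and of the 4 receptor chains Il1rap alone was. Il1a, which encodes IL-1α, a cytokine that keratinocytes hold and release on damage, was 98.8, 169 and 130.1 in syngeneic, 1739, 979 and 329.6 in allo-WT and 97.2, 98.3, 98.1, 82.2 and 89.8 in allo-MCd mice. Every allo-WT mouse was above all 8 others, and the syngeneic values lay narrowly above the allo-MCd values. The difference was 2.66 ± 0.47 (SE, adjusted p = 0.00114) for allo-WT minus syngeneic, a 6.33-fold change, and -3.14 ± 0.42 (SE, adjusted p = 5.46e-05) for allo-MCd minus allo-WT, with -0.47 ± 0.42 (SE, adjusted p = 0.367) for allo-MCd minus syngeneic. The first ran from 2.13 without allo-WT mouse 1 to 3.32 without allo-WT mouse 3, and the second from -2.60 to -3.80 without the same mice. By the test of the study's methods (the methods' test), the first was not called after the Benjamini-Hochberg adjustment (adjusted p = 0.095).

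Il1b, which encodes IL-1β, made by macrophages and neutrophils and cut to its active form by caspase-1, was 406, 168 and 482 in syngeneic, 1384, 326 and 422 in allo-WT and 98, 126, 57.9, 74.2 and 121 in allo-MCd mice. The syngeneic and allo-WT ranges overlap, and allo-WT mouse 1 is far above both of its group mates. Allo-WT minus syngeneic was 0.84 ± 0.54 (SE, adjusted p = 0.215) and not called, whereas the 5 allo-MCd mice were below every other mouse, with -2.64 ± 0.49 (SE, adjusted p = 0.000563) against allo-WT and -1.80 ± 0.49 (SE, adjusted p = 0.0123) against syngeneic. Without allo-WT mouse 1 the difference between the allogeneic groups was -2.01 (adjusted p = 0.00242), and the methods' test did not call it, before or after the Benjamini-Hochberg adjustment (adjusted p = 0.108). The call against syngeneic was lost without syngeneic mouse 1 or mouse 3, with adjusted p up to 0.0659, and on the median scale, where it was -1.14 (adjusted p = 0.0799). Il1a and Il1b are direct neighbours on chromosome 2.

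Il1rn, the gene of the IL-1 receptor antagonist, was 703, 1235 and 1022 in syngeneic, 2637, 2436 and 1207 in allo-WT and 784, 908, 843, 736 and 699.9 in allo-MCd mice. Of the allo-WT mice, 2 stood above every other mouse and mouse 3 lay within the syngeneic range. The difference was 1.04 ± 0.30 (SE, adjusted p = 0.0134) for allo-WT minus syngeneic and -1.32 ± 0.26 (SE, adjusted p = 0.000985) for allo-MCd minus allo-WT. The first was not called without allo-WT mouse 1, at 0.83 (adjusted p = 0.0593), without allo-WT mouse 2 or without syngeneic mouse 1, and neither was called on the median scale, where they were 0.80 (adjusted p = 0.06) and -0.43 (adjusted p = 0.22).

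Il1r2, the decoy receptor, was lower in both allogeneic groups. Its values were 2885, 2296 and 2565 in syngeneic, 996, 811 and 677 in allo-WT and 899.8, 618, 748, 814 and 1167 in allo-MCd mice. Each syngeneic mouse was above all 8 allogeneic mice, and the 2 allogeneic groups overlap. It was lower by 3.14-fold in allo-WT against syngeneic skin, at -1.65 ± 0.24 (SE, adjusted p = 0.000383), and by 3.09-fold in allo-MCd skin, at -1.63 ± 0.21 (SE, adjusted p = 0.00107), and these calls held under all 28 alternatives that were run. Between allo-MCd and allo-WT the deposited scale gave 0.02 ± 0.21 (SE, adjusted p = 0.933) and the median scale 0.92 (adjusted p = 0.00109).

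The signalling chain Il1r1, next to Il1r2 on chromosome 1, was 1535, 1562 and 1825 in syngeneic, 2206, 1229 and 1673 in allo-WT and 1126, 1099, 1153, 1271 and 1359 in allo-MCd mice. Its groups overlap in allo-WT against syngeneic, where the difference was 0.02 ± 0.21 (SE, adjusted p = 0.955), with a 95% interval of -0.45 to 0.48. Against allo-WT the allo-MCd value was -0.47 ± 0.19 (SE, adjusted p = 0.0501), just short of a call, and 0.43 (adjusted p = 0.0389) on the median scale. Il1rap, the accessory chain of the IL-1 receptor, was 446, 692 and 634 in syngeneic, 1006, 715 and 595 in allo-WT and 386, 457, 399, 472 and 566 in allo-MCd mice. It was called lower in allo-MCd against allo-WT, at -0.74 ± 0.23 (SE, adjusted p = 0.0138), but was -0.53 (adjusted p = 0.0803) without allo-WT mouse 1 and turned to 0.16 (adjusted p = 0.532) on the median scale.

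Il18, an IL-1 family ligand that epithelium stores as a precursor, was 1251, 1119 and 1441 in syngeneic, 2086, 1672 and 1229 in allo-WT and 537, 695, 585, 441 and 970.4 in allo-MCd mice. All 5 allo-MCd mice were below the other 6, with -1.38 ± 0.26 (SE, adjusted p = 0.000574) against allo-WT and -1.02 ± 0.26 (SE, adjusted p = 0.00819) against syngeneic. Allo-WT minus syngeneic was 0.36 ± 0.29 (SE, adjusted p = 0.303). On the median scale neither fall was called (-0.49, adjusted p = 0.0531, and -0.36, adjusted p = 0.204). Its receptor chain Il18r1 was not called in any comparison, with differences from -0.83 to -0.12. Il18r1 was 368, 771 and 632 in syngeneic, 406, 688 and 497 in allo-WT and 269, 184, 393, 299.9 and 558 in allo-MCd mice, and the 3 groups overlap.

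In the IL-6 group the ligand and its receptor moved apart. Il6, a cytokine of acute inflammation made by myeloid cells and fibroblasts, was 58.4, 17.3 and 54 in syngeneic, 504, 145 and 211 in allo-WT and 25.8, 41.7, 16.5, 27.9 and 38 in allo-MCd mice. All allo-WT mice stood above the other 8, in which syngeneic mouse 2 and allo-MCd mouse 3 were at or below background. The difference was 2.67 ± 0.55 (SE, adjusted p = 0.00262) for allo-WT minus syngeneic, 6.39-fold, and -3.08 ± 0.49 (SE, adjusted p = 0.000208) for allo-MCd minus allo-WT, 8.44-fold. The methods' test did not call the first after the Benjamini-Hochberg adjustment (adjusted p = 0.0931). Allo-MCd and syngeneic mice overlap, at -0.40 ± 0.49 (SE, adjusted p = 0.52).

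Il6ra, the ligand-binding chain of the IL-6 receptor, was 2415, 2745 and 2204 in syngeneic, 1295, 1107 and 1381 in allo-WT and 1047, 763, 1277, 882 and 1879 in allo-MCd mice. The syngeneic mice were above all 8 allogeneic mice, and the allogeneic groups overlap. Against syngeneic skin it was lower in allo-WT, at -0.96 ± 0.29 (SE, adjusted p = 0.018), and in allo-MCd, at -1.14 ± 0.26 (SE, adjusted p = 0.00483). The first call was lost without syngeneic mouse 2 or allo-WT mouse 2, with adjusted p up to 0.057. The second was lost on the median scale, at -0.48 (adjusted p = 0.0894). Between the allogeneic groups it was -0.18 ± 0.26 (SE, adjusted p = 0.561) on the deposited and 0.72 (adjusted p = 0.00717) on the median scale. Of the 12 pairs listed and tested, Il6 with Il6ra was the 1 called in opposite directions in allo-WT against syngeneic skin. Il1a and the decoy Il1r2, not paired in that list, were also called in opposite directions there.

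Il27ra, a receptor chain for IL-27 carried by T cells and other leukocytes, was 34.4, 34.6 and 30.9 in syngeneic, 81.1, 52.5 and 84.3 in allo-WT and 9.11, 20.4, 27.9, 18.4 and 21.9 in allo-MCd mice. The allo-WT mice were above all others, and some values of the other groups were at background. It was 1.07 ± 0.39 (SE, adjusted p = 0.0404) for allo-WT minus syngeneic and -1.89 ± 0.34 (SE, adjusted p = 0.000523) for allo-MCd minus allo-WT. The first was lost when any of 7 mice was left out, allo-WT mouse 1 among them, at 0.98 (adjusted p = 0.101), and on the median scale (0.83, adjusted p = 0.0562), and the second was lost in none of the alternatives run. Its ligand gene Il27 was 10.5, 8.65 and 6.62 in syngeneic, 20.3, 4.78 and 7.66 in allo-WT and 3.8, 7.42, 8.26, 6.38 and 4.6 in allo-MCd mice and never above background, so the pair could be read on its receptor side only.

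The subunits of IL-12 and IL-23 did not move as one. Il12b encodes p40, shared by both cytokines, Il12a the p35 chain of IL-12 and Il23a the p19 chain of IL-23. Il12b was 34.4, 43.3 and 34.2 in syngeneic, 63.4, 38.2 and 179 in allo-WT and 12.9, 10.2, 18.6, 33.5 and 31.1 in allo-MCd mice. Allo-WT mouse 3 was the highest, and each allo-MCd mouse was below all others. The difference from allo-WT was -1.93 ± 0.50 (SE, adjusted p = 0.0057), and -1.06 (adjusted p = 0.0675) on the median scale. It was -1.31 without allo-WT mouse 3, and the methods' test did not call it, before or after the Benjamini-Hochberg adjustment. Il12a, by contrast, was highest in syngeneic skin, at 35.9, 37.9 and 39.7 in syngeneic, 22.8, 17.9 and 17.9 in allo-WT and 13.7, 15.8, 23.8, 19.1 and 25.3 in allo-MCd mice. It was above background in 2 syngeneic, 1 allo-WT and 2 allo-MCd mice, and was called lower than in syngeneic skin in allo-WT, at -0.93 ± 0.31 (SE, adjusted p = 0.0314), and in allo-MCd, at -0.95 ± 0.28 (SE, adjusted p = 0.0177). With every value below background raised to it, allo-WT minus syngeneic was no longer called, and the same followed when any of 5 mice was left out, among them each syngeneic mouse. Allo-MCd minus syngeneic was not called without syngeneic mouse 3, nor on the median scale (-0.32, adjusted p = 0.326). Il23a was 26.9, 28.1 and 23.2 in syngeneic, 40.6, 28.7 and 30.7 in allo-WT and 12.2, 14.8, 18.6, 12.8 and 15 in allo-MCd mice. It was above background in no allo-MCd mouse, and allo-MCd minus allo-WT was -1.13 ± 0.26 (SE, adjusted p = 0.00272) on the deposited scale. Set against background it was at least 1.71-fold lower there than in allo-WT skin, a bound without a test. On the median scale it was -0.27 (adjusted p = 0.35) and not called.

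**Figure D4:**
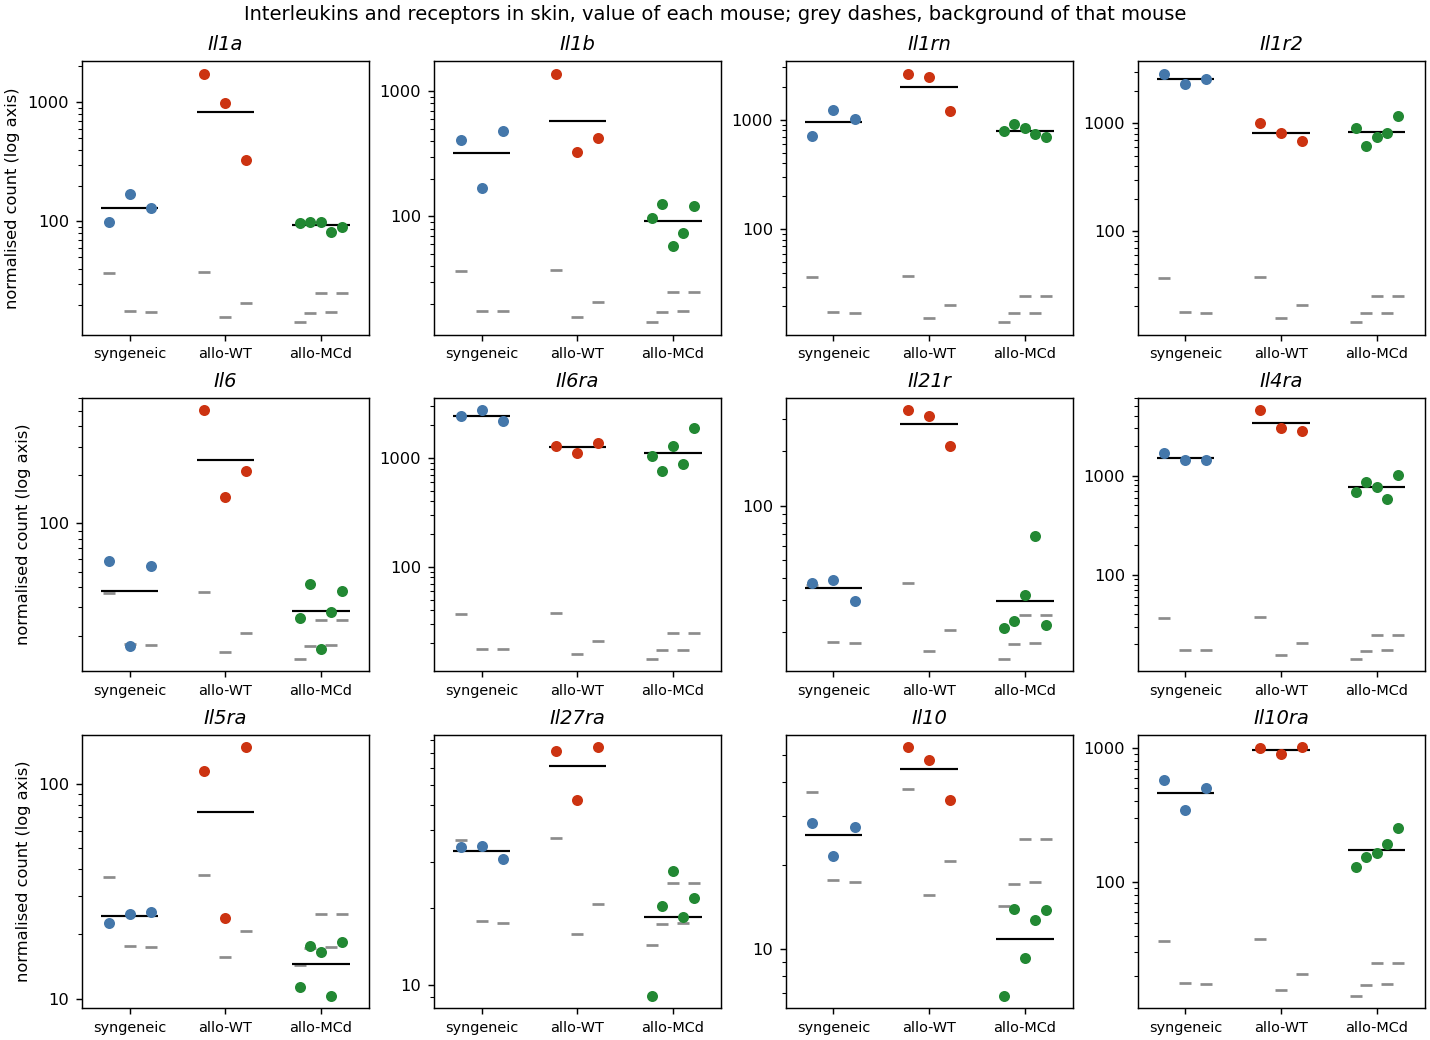
Normalised count of each mouse (log axis, a scale of its own for each gene) for 12 members in the 3 groups, with the group mean of log values as a black line and the background of each mouse as a grey dash. Il1a, Il6 and Il21r are high in the 3 allo-WT mice alone, whereas Il1r2 and Il6ra are high in the 3 syngeneic mice alone.

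Il10 and its receptor were called lower together in allo-MCd skin. IL-10 is a cytokine that restrains macrophages and dendritic cells, and IL10RA is its ligand-binding chain. Il10 was 28.4, 21.6 and 27.6 in syngeneic, 53.2, 47.8 and 34.5 in allo-WT and 6.83, 13.9, 9.3, 12.8 and 13.8 in allo-MCd mice. The 3 groups did not overlap, but no allo-MCd value and not that of syngeneic mouse 1 was above background. On the deposited scale allo-MCd minus allo-WT was -1.93 ± 0.31 (SE, adjusted p = 0.000205), and the median scale gave -1.07 (adjusted p = 0.00692). Set against background instead, allo-MCd skin was at least 2.3-fold below allo-WT, a bound that has no test of its own. Against syngeneic skin it was -1.16 ± 0.31 (SE, adjusted p = 0.0114), a call lost on the median scale (-0.54, adjusted p = 0.185) and once values below background were raised to it. Allo-WT minus syngeneic was 0.77 ± 0.34 (SE, adjusted p = 0.0862).

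Il10ra was well above background in every mouse, at 575, 347 and 501 in syngeneic, 996, 894 and 1017 in allo-WT and 129, 154, 165, 192 and 254 in allo-MCd mice. The 3 groups again did not overlap, with allo-WT highest and allo-MCd lowest. It was 1.06 ± 0.27 (SE, adjusted p = 0.00911) for allo-WT minus syngeneic, -2.47 ± 0.24 (SE, adjusted p = 5.65e-06) for allo-MCd minus allo-WT and -1.41 ± 0.24 (SE, adjusted p = 0.00161) for allo-MCd minus syngeneic. It was the 1 member whose 3 calls, higher, lower and lower, were each kept under all 28 alternatives run. The pair of Il10 and Il10ra was also the 1 of 12 pairs with both genes called lower in allo-MCd against allo-WT on the median scale.

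Of the receptors that use the common gamma chain, Il21r moved most. Its product binds IL-21, a cytokine of helper T cells that acts on B cells, T cells and macrophages. Il21r was 37.4, 39 and 29.8 in syngeneic, 335, 311 and 212 in allo-WT and 21.3, 23.2, 32, 67.8 and 21.9 in allo-MCd mice. Allo-WT mice were above all 8 others, allo-MCd mouse 4 stood above the syngeneic mice, and allo-MCd mouse 5 was not above background. It was 2.96 ± 0.42 (SE, adjusted p = 0.000333) for allo-WT minus syngeneic, 7.78-fold, and -3.19 ± 0.37 (SE, adjusted p = 2.08e-05) for allo-MCd minus allo-WT, 9.12-fold, the widest difference of any tested member in both comparisons on the deposited scale. With a mouse left out Il21r ran from 2.83 to 3.16 and from -3.48 to -3.06, and Il1a was wider without allo-WT mouse 3, at 3.32 and -3.80. For Il21r allo-MCd minus syngeneic was -0.23 ± 0.37 (SE, adjusted p = 0.633).

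Il15ra, which presents IL-15 to lymphocytes, was 286, 378 and 278 in syngeneic, 804, 699 and 360.2 in allo-WT and 176, 128, 220.04, 179 and 260.1 in allo-MCd mice. Its call in allo-WT against syngeneic, 0.92 ± 0.34 (SE, adjusted p = 0.0437), was lost when any of 7 mice was left out and was 0.69 (adjusted p = 0.154) without allo-WT mouse 1. In allo-MCd against allo-WT it was -1.64 ± 0.30 (SE, adjusted p = 0.000526), called with each mouse left out in turn but not under quantile normalization, where it was -0.69 (adjusted p = 0.0521). It was also not called with voom on recovered counts scaled to each mouse's total. Its ligand gene Il15 was 165, 211 and 222 in syngeneic, 188, 129 and 229.9 in allo-WT and 60.8, 83.4, 85.7, 86.9 and 137 in allo-MCd mice. The 5 allo-MCd mice were below each syngeneic mouse, at -1.16 ± 0.29 (SE, adjusted p = 0.00819), and at -1.01 ± 0.29 (SE, adjusted p = 0.00981) against allo-WT, where mouse 2 of allo-WT lay within the allo-MCd range. On the median scale neither was called (-0.51, adjusted p = 0.116, and -0.12, adjusted p = 0.672). Il2 was 13.1 to 43.1 over the 11 mice and was not called.

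In the type 2 group Il4ra, the chain shared by the receptors for IL-4 and IL-13, was 1679, 1433 and 1421 in syngeneic, 4538, 3013 and 2823 in allo-WT and 678, 863, 762, 585 and 1003 in allo-MCd mice. The 3 groups did not overlap. It was 2.24-fold higher in allo-WT than in syngeneic skin, at 1.16 ± 0.24 (SE, adjusted p = 0.00259), and 4.41-fold lower in allo-MCd against allo-WT, at -2.14 ± 0.21 (SE, adjusted p = 5.85e-06). Allo-MCd minus syngeneic was -0.98 ± 0.21 (SE, adjusted p = 0.00411) on the deposited and -0.32 (adjusted p = 0.197) on the median scale. Il13, whose product is an effector cytokine of helper T cells and innate lymphoid cells linked to fibrosis, was 40.4, 34.6 and 18.7 in syngeneic, 27.9, 43 and 151 in allo-WT and 14.4, 24.1, 13.4, 15.2 and 17.3 in allo-MCd mice. Allo-WT mouse 3 was the highest, and allo-WT mouse 1 was not above background. It was called lower in allo-MCd against allo-WT, at -1.72 ± 0.48 (SE, adjusted p = 0.00848), but not on the median scale (-0.86, adjusted p = 0.151), nor by the methods' test (adjusted p = 0.189). It ran from -1.03 without allo-WT mouse 3 to -2.22 without allo-WT mouse 1. Allo-WT minus syngeneic was 0.91 ± 0.54 (SE, adjusted p = 0.181).

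Il5ra, the receptor chain for the eosinophil growth factor IL-5, was 22.4, 24.9 and 25.4 in syngeneic, 114, 23.9 and 148 in allo-WT and 11.4, 17.6, 16.5, 10.4 and 18.4 in allo-MCd mice. Allo-WT mice 1 and 3 were high, and mouse 2 lay within the syngeneic range. Allo-WT minus syngeneic was 1.58 ± 0.56 (SE, adjusted p = 0.0374), lost without allo-WT mouse 1, at 1.27 (adjusted p = 0.123), without mouse 3 of that group, or without any 1 of the syngeneic mice, and 2.38 without mouse 2 of allo-WT. Allo-MCd mice, of which 1 was above background, were below every allo-WT mouse, at -2.28 ± 0.50 (SE, adjusted p = 0.00176), and at -3.08 without allo-WT mouse 2. The methods' test did not call it after the adjustment (adjusted p = 0.0504). Il5 itself was 18, 26 and 9.92 in syngeneic, 15.2, 17.9 and 63.9 in allo-WT and 5.32, 4.64, 10.3, 4.79 and 20.7 in allo-MCd mice. It was above background in 1 syngeneic, 2 allo-WT and no allo-MCd mice, and its call in allo-MCd against allo-WT (-1.63, adjusted p = 0.0262) was lost without allo-WT mouse 3, at -1.004, without any of 3 allo-MCd mice, and once values below background were raised to it.

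Il3ra, the receptor chain for IL-3, was 591, 308 and 406 in syngeneic, 223, 326 and 324 in allo-WT and 104, 146, 226, 134 and 261 in allo-MCd mice. All allo-MCd mice were below the syngeneic mice, at -1.35 ± 0.33 (SE, adjusted p = 0.00729), and the allo-WT range touched both groups, with -0.55 ± 0.37 (SE, adjusted p = 0.232) against syngeneic and -0.80 ± 0.33 (SE, adjusted p = 0.0514) for allo-MCd minus allo-WT. Without allo-WT mouse 1 the last was called, at -0.98 (adjusted p = 0.0475). On the median scale allo-MCd minus syngeneic was -0.69 (adjusted p = 0.0757) and was not called. Its ligand gene Il3 was 15, 10.8 and 13.2 in syngeneic, 10.1, 14.3 and 21.7 in allo-WT and 12.9, 10.2, 12.4, 8.77 and 12.7 in allo-MCd mice, above background in 1 allo-WT mouse only. Il3, Il5 and Il13 lie near each other on chromosome 11, and none of them was above background in all mice of a group apart from Il13 in syngeneic skin.

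The members not yet described were few and mostly dim. Il17ra, the receptor chain through which keratinocytes and fibroblasts answer IL-17, was above background in all mice, at 324 to 611 over the 11 mice, and was not called in any comparison on the deposited scale. It was -0.27 ± 0.19 (SE, adjusted p = 0.235) for allo-MCd minus allo-WT, and 0.62 (adjusted p = 0.00716) on the median scale. Il4i1 was 8.77 to 51.1 over the 11 mice and above background in 4, at -1.21 ± 0.42 (SE, adjusted p = 0.0243) for allo-MCd minus allo-WT, a call lost without allo-WT mouse 1, at -1.16 (adjusted p = 0.0684) and without any of 3 other mice. Il9, at 5.56 to 26.8, was above background in 1 mouse and Il25, at 6.83 to 50.9, in 2 mice, and Il22 reached at most 13.5 in any mouse.

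Taking ligands and receptors side by side, 14 listed pairs had both genes on the panel and 12 had both tested. The list paired the decoy Il1r2 with Il1b only. In allo-WT against syngeneic skin no pair had both genes called higher or both lower, since the ligands called higher (Il1a and Il6) had receptor chains that were not, and the receptor chains called higher (Il4ra, Il5ra, Il10ra and Il15ra) had ligands that were not. In allo-MCd against allo-WT skin 6 pairs had both genes called lower: Il1a and Il1b with Il1rap, Il15 with Il15ra, Il13 with Il4ra, Il5 with Il5ra, and Il10 with Il10ra. Of all genes tested 50% were called lower in this comparison, and how often any pair of genes is lower together was not tested. The call of Il1rap was lost without allo-WT mouse 1, and that of Il5 without any of 4 mice. On the median scale 1 listed pair had both lower and 4 had the ligand lower and the receptor higher. These 4 were Il1a with Il1r1, Il1b with Il1r1, Il1b with Il1r2, and Il6 with Il6ra. Il1a with Il1r2, not in the list, also had the ligand lower and the receptor higher on that scale. Of all genes 29.5% were called lower there and 37.2% higher. By role, the median difference between allo-MCd and allo-WT was -1.68 over 12 ligand genes and -0.80 over 13 receptor genes, or -0.84 and 0.10 on the median scale, beside 0.17 over all genes on that scale.

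**Figure D5:**
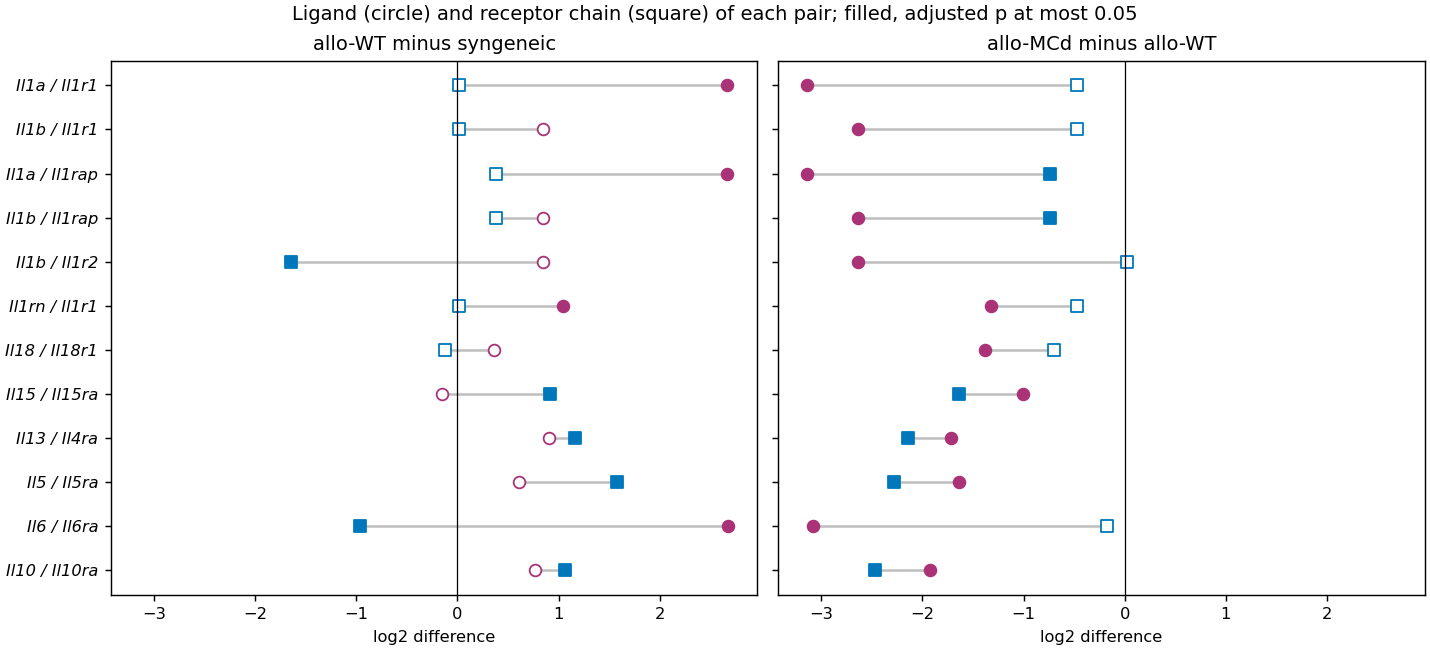
Log2 difference of the ligand (circle, with the antagonist Il1rn drawn as one) and the receptor chain (square) of the 12 tested pairs in allo-WT minus syngeneic (left) and allo-MCd minus allo-WT (right) on the deposited scale, filled where called. The bar of Il6 and Il6ra crosses 0 on the left with both ends filled, and on the right both symbols of 6 pairs are filled and left of 0.

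Other genes of these pathways were taken from a list of 43, of which 18 were on the panel and tested. In allo-WT against syngeneic skin 6 of the 18 were called higher (28.3% of all genes) and none lower (14.9% of all genes), and in allo-MCd against allo-WT none was called higher (10.9% of all genes) and 14 lower (50% of all genes). On the median scale these counts were 5 higher and 2 lower (24% and 26.9% of all genes), and 2 higher and 8 lower (37.2% and 29.5% of all genes). Socs1, a feedback inhibitor of JAK kinases, had a mean of 292 ± 18.7 (SD, n = 3) in syngeneic, 1079 ± 369 (n = 3) in allo-WT and 177 ± 36.9 (n = 5) in allo-MCd skin, with 1.83 (adjusted p = 0.000401) for allo-WT minus syngeneic and -2.58 (adjusted p = 4.53e-06) for allo-MCd minus allo-WT. It was also called in both comparisons on the median scale.

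Nlrp3, the sensor of the inflammasome that activates caspase-1 and so IL-1β, was 141 ± 31.8, 277 ± 176 and 35.9 ± 13.4, with -2.81 (adjusted p = 7.52e-05) for allo-MCd minus allo-WT and -1.996 (adjusted p = 0.00279) for allo-MCd minus syngeneic. Osm, the IL-6 family ligand oncostatin M, was -2.80 (adjusted p = 0.00509) for allo-MCd minus allo-WT, Csf1r, the receptor of macrophage growth factor, -2.09 (adjusted p = 5.49e-05), and Stat4, the transducer of IL-12 and IL-23, -1.92 (adjusted p = 0.00216). Stat4 was above background in no allo-MCd mouse, so its size there is uncertain. Pycard, the adaptor of the same inflammasome, was not called between the allogeneic groups on the deposited scale, at 0.21 (adjusted p = 0.543), and was called higher in allo-MCd on the median scale, at 1.10 (adjusted p = 0.00357). It was picked after its values were seen.

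These are values of whole skin, in which fewer cells of a type and less RNA per cell cannot be told apart, and genes that mark leukocytes were also lower in allo-MCd against allo-WT skin. All 8 macrophage markers were called lower in allo-MCd against allo-WT skin (7 on the median scale), and their summed level was 14311 to 16737 in syngeneic, 24542 to 40843 in allo-WT and 4553 to 8433 in allo-MCd mice. For the 7 neutrophil markers, of which 5 were tested and all 5 called lower in allo-MCd against allo-WT, the sum was 514 to 741, 3929 to 133582 and 555 to 1167, with 4 of 5 called higher in allo-WT and none called in allo-MCd against syngeneic, and with Ly6g, Mpo and Elane above background in no allo-MCd mouse. In allo-WT skin the neutrophil sum mostly follows S100a8 and S100a9, whose means were 31487 ± 39615 (SD, n = 3) and 22985 ± 28439 (SD, n = 3). Of the 10 T cell markers listed, Cd28 was the 1 found on the panel, at 58.4 to 92.6, 162 to 200.3 and 28.9 to 39.9. The 7 mast cell markers summed to 3851 to 9348, 2397 to 14802 and 139 to 656, all 7 were called lower in allo-MCd against allo-WT (6 on the median scale) and 1 higher in allo-WT against syngeneic, and Kit and Ms4a2 were above background in no allo-MCd mouse. The 3 fibroblast markers summed to 83633 to 179631, 11519.8 to 132287 and 34482 to 81653, and 1 of them (Col1a2) was called lower in allo-WT against syngeneic, as were both endothelial markers, Des (the 1 gene of the muscle list found on the panel), Il1r2 and Il6ra. Neither endothelial marker nor Des was called between the allogeneic groups on the deposited scale, and all 3 were called higher in allo-MCd on the median scale. Of the 6 keratinocyte markers listed none was on the panel, and of the 5 B cell markers Ms4a1 alone was, above background in 2 allo-WT mice only. The part of these cell types in the interleukin results was not tested.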

How the data were processed

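Skin RNA (100 ng per mouse) was hybridised to the NanoString Myeloid Innate Immunity panel. Each mouse has 1 deposited column, in which a gene's value is a normalized count (a linear signal) that the authors made in nSolver, whose version, reference genes and background step are not given in the sources used here. Control probes were deposited as raw counts. Within a tolerance of 0.011, 100% of the gene values of a mouse (99.9% in allo-MCd mouse 1) were whole multiples of 1 factor (0.759 to 2.54), which gave counts of 831632 to 1460260 per mouse, and these cover counting error only.

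Tests used limma 3.58.1 (R 4.3.3) with an intensity trend on log2(value + 1), 20 housekeeping genes of the panel left out, and exact permutation tests from scipy 1.17.1, and the fit was tested on simulated data. A fold is on the scale of value + 1, and understates low genes. A bound for a gene below background in every mouse of a group set the other group's mean log2 value against the mean background. Values by mouse are given for the 10 called members with the largest difference in each comparison and for their partners, and other members by range. The mice of a group were numbered in the labels, which do not say how they were housed or processed, so p-values measure the spread between these mice.

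The members, pairs and lists were chosen with earlier results of these data known. Levels of different genes are not compared, since probes differ. All 32 symbols matched the RefSeq gene table. The values of 1 gene of the pathway list are not reported here.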

Additional observations from a re-analysis of the deposited data

How the results depend on the processing

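Of the 42 differences called for single members, 13 were called under every alternative run and 30 with each mouse left out in turn, and the calls lost numbered 21 under median scaling, 20 under quantile normalization, 22 with voom on total scaling, 8 by the methods' test (19 after Benjamini-Hochberg) and 6 with values raised to background. Counts of members called are given here for allo-WT against syngeneic (9 higher, 3 lower), allo-MCd against allo-WT (0 higher, 19 lower) and allo-MCd against syngeneic (11 lower). Quantile normalization gave 5 higher and 5 lower (23.1% and 30.03% of all genes), 3 higher and 10 lower (36.6% and 29.5%), and 4 lower (14.2%). Median scaling gave 5 higher and 10 lower for allo-MCd against allo-WT and 2 lower for allo-MCd against syngeneic. Voom on recovered counts scaled to each mouse's total, chosen after seeing the data, gave 5 higher and 5 lower (20.3% and 30.2% of all genes), 5 higher and 9 lower (38.6% and 27.9%), and 3 lower (13.4%). A filter of at least 50 in at least 3 mice, or a mean of at least 40, left 12 lower of 18 members tested for allo-MCd against allo-WT (49% and 49.2% of all genes). The methods' test (ANOVA with Tukey's comparison) gave 9 higher and 3 lower (28.3% and 14.7% of all genes), 14 lower (43% of all genes) and 10 lower (26% of all genes) unadjusted, and after Benjamini-Hochberg 5 higher and 3 lower (19.5% and 8.19% of all genes), 12 lower (37.1% of all genes) and 4 lower (9.34% of all genes). With each mouse left out the counts ran from 5 to 9 higher (22.99% to 29.7% of all genes) and 1 to 3 lower (9.2% to 18.7%), 17 to 22 lower (43.5% to 51.9%), and 8 to 14 lower (23.9% to 44.7%); the 5 came without syngeneic mouse 1 or allo-WT mouse 1, and the 1 without syngeneic or allo-WT mouse 2.

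The median difference of the members for allo-WT minus syngeneic (0.61) was 0.37 with a pseudocount of 20, 0.38 under median scaling, 0.14 under quantile normalization, 0.35 with voom on total scaling, and 0.38 to 0.79 with a mouse left out, lowest without allo-WT mouse 1. For allo-MCd minus allo-WT (-1.38) the same settings gave -1.05, -0.49, -0.61 and -0.42, and -1.16 with values raised to background. For allo-MCd minus syngeneic (-0.82) they gave -0.46, -0.19, -0.24 and -0.22. With a mouse left out these last 2 medians ran from -1.54 to -1.18 and from -0.91 to -0.77. Among the 42 called differences Il1rap alone reversed, for allo-MCd minus allo-WT, to 0.16 under median scaling, 0.048 under quantile normalization and 0.23 with voom on total scaling. The cause of these shifts was not tested.

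Mouse number is shared between groups by name only: deviations of same-numbered mice correlated at -0.11 to 0.21 over 9 pairs. With the number as a replicate block, 6 members were called higher and 2 lower in allo-WT against syngeneic (27% and 14.7% of all genes), 19 lower in allo-MCd against allo-WT (46.6%) and 11 lower in allo-MCd against syngeneic (35.8%). The 2 planned edgeR fits were not run, since the recovered counts did not pass a separate test of whole reads that these fits required, and voom was fitted to the recovered counts instead. Dim members are a further limit: 17 of 32 were not above background in every mouse, and small differences there are not detectable.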
